A study of Mus musculus with 6 samples.

Results

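The kainate receptor family was followed here in mouse tissue taken at postnatal day 18, in 3 wild-type (WT) libraries and 3 libraries from mice in which the large Atoh7 enhancer was deleted (enhancer KO). The members were chosen by gene symbol: the receptor subunit genes Grik1, Grik2, Grik3, Grik4 and Grik5 and the auxiliary subunit genes Neto1 and Neto2, 7 of the 24411 genes in the count tables. All 7 passed the filter on low counts, which 15846 genes passed. The study compared RNA-seq read counts between the genotypes. Its series concerns a regulatory element of Atoh7, a basic helix-loop-helix transcription factor gene required for retinal ganglion cells. The labels name cerebellum in the protocol and retina in the tissue field. They give no strain, sex, litter or pooling of animals, and nothing further on where the deletion lies. They call the replicates independent without naming animals, so p-values measure the spread between these libraries.

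Kainate receptors are glutamate-gated cation channels assembled from subunits of a single family, and they act both after and before the synapse. The proteins made from Grik1, Grik2 and Grik3 (GluK1, GluK2 and GluK3) can form channels by themselves. Those made from Grik4 and Grik5 (GluK4 and GluK5) bind agonist with higher affinity and need a partner from the first group. Neto1 and Neto2 encode membrane proteins that bind the channel and change its gating and synaptic placement. In the cerebellum, Grik2 and Grik5 transcripts are known from granule neurons, Grik1 and Grik4 from Purkinje cells and Grik3 from interneurons of the molecular layer.

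The upstream sequences of Grik2 and Grik3 are shown because these members moved most, and in opposite directions. They are RefSeq promoter sequences (build GRCm38.p6, the assembly of mm10) with any base inside a GENCODE exon left out. Capitals mark CANNTG, the E-box bound by basic helix-loop-helix factors. This motif is its own reverse complement, so each match stands on both strands. The Grik2 stretch covers chr10:49788767-49789004 on the minus strand and the Grik3 stretch chr4:125490446-125490695 on the plus strand.
Grik2: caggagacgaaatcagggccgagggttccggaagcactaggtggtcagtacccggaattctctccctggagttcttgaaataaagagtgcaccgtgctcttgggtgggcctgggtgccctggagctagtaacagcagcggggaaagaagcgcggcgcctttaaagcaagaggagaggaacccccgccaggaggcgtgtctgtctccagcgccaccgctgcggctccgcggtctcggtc
Grik3: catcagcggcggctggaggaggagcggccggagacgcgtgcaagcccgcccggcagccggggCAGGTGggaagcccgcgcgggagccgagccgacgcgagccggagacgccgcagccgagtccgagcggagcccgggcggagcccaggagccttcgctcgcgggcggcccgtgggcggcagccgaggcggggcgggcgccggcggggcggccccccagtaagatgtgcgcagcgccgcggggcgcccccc
The Grik3 stretch held 1 E-box and the Grik2 stretch 0. In the full 300-base windows, which run past the transcription start, Grik2 and Grik3 each had 1, Grik4 and Grik5 had 0, and the windows of the Neto2 starts had 6 and 1. Of 32851 RefSeq promoter windows of that length, 72.3% held at least 1. The narrower E-boxes CAGCTG and CATATG, present in 16.3% and 3.92% of all windows, were in none of these 6 windows. CAGATG, present on either strand in 17.2% of all windows, had 1 match, in a Neto2 window. The Grik3 window was 82.0% G or C and the Grik2 window 64.7%. Grik1 and Neto1 are named only.

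The genes are large and made mostly of intron. Grik2 spans 694 kb of chromosome 10 (mm10, 49094833 to 49788766, minus strand) with 13.2 kb of exon, and lies 13.31 Mb from Atoh7 on the same chromosome. Grik4 spans 426 kb of chromosome 9 (42518135 to 42944493, minus strand), Grik1 394 kb of chromosome 16 (87895900 to 88290265, minus strand) and Grik3 223 kb of chromosome 4 (125490700 to 125714173, plus strand). Grik5 is the compact subunit gene, at 62.5 kb of chromosome 7 (25009849 to 25072346, minus strand). Neto1 lies on chromosome 18 at 86394952 to 86506718 (plus strand) and Neto2 on chromosome 8 at 85636588 to 85700924 (minus strand). Exons made up 1.40% of the span of Grik4, 1.91% of that of Grik2 and 9.53% of that of Neto2. The genes Mir8109 and AC113599.1, on the opposite strand, share 20 exon bases with Neto2 and 219 with Neto1, and the counts used are those of the gene's own strand. Gm24420 shares 59 exon bases with Grik4 on the same strand, where strand does not tell their reads apart. Reads on the other strand were 1.502% of those of Neto1 in WT and 1.84% in enhancer KO, and at most 0.471% for the other members.

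Reads in genes ranged from 22812075 to 33076111 in WT and from 36849747 to 40858310 in enhancer KO. WT replicate 2 stood apart, with 20.4% of reads unmapped and 12.9% of gene reads on the ribosomal RNA gene Rn45s, against 1.51% to 3.02% in the others. Reads outside annotated exons made up 31.1% to 34.1% of each WT library and 16.8% to 18.2% of each enhancer KO library. WT replicate 1 had 34185 Xist reads and 0 Ddx3y reads and the other libraries at most 50 and at least 1916, so it was the only library with a female pattern. Atoh7 had 63, 42 and 72 reads in WT and 28, 33 and 29 in enhancer KO (log2 fold change -1.41 ± 0.205, SE; edgeR adjusted p = 0.000352). The defining photoreceptor markers of a retina were all but missing: 7 of 8 stayed under 1 CPM in every library and Crx was at 0 in all WT libraries, while 0 of 12 granule neuron and 0 of 7 Purkinje cell markers of the cerebellum were that low.

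Of the 7 members, 2 fell and 2 rose in enhancer KO at an edgeR adjusted p under 0.05, while 31.3% of all genes tested were called, 17.9% lower and 13.4% higher. Grik2 was 1.77-fold lower and Grik1 1.13-fold lower. Grik3 was 1.21-fold higher and Grik4 1.16-fold higher. Grik5, Neto1 and Neto2 did not pass. Without WT replicate 2, 1 member fell and 1 rose (26.0% of all genes called). Without WT replicate 1, 3 members fell and 2 rose (30.7% called). Without WT replicates 2 and 3, in a fit that lends the lone WT library the spread of the other group, 1 fell, Grik2, and 0 rose (19.1% called). Over all genes, 31.6% were called with RLE scaling, 24.3% with library size alone, 26.6% with DESeq2, 31.5% with limma-voom, 35.2% with unstranded counts, 30.7% without WT replicate 1 and 22.9% without enhancer KO replicate 2.

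**Figure D1:**
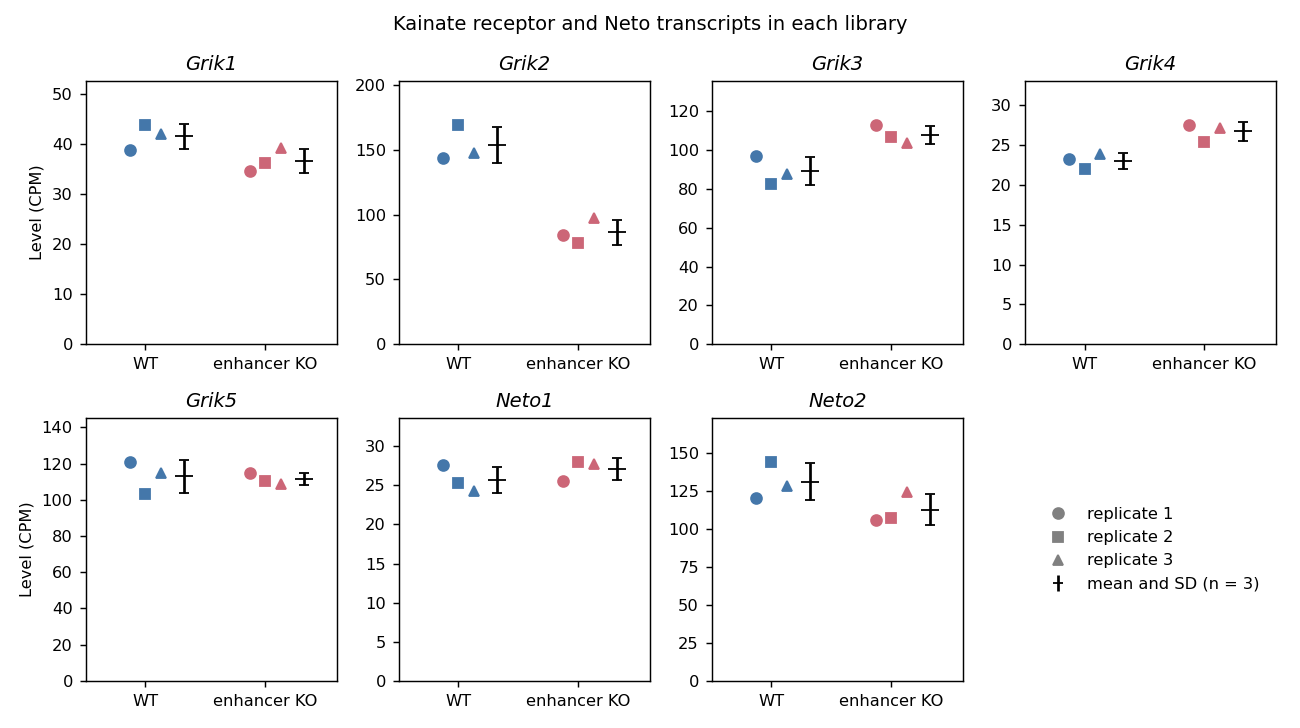
Levels of the 7 members in CPM (scaled counts, y axis, each from 0) in the 3 WT (blue) and 3 enhancer KO (red) libraries, with the mean and SD of each group in black. Grik2 lay between 144 and 169 CPM in WT and between 78.4 and 97.3 CPM in enhancer KO. Grik3 and Grik4 also had groups that did not overlap, as held for 44.8% of all genes tested.

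Grik2 encodes GluK2, a channel-forming subunit whose mRNA is edited at the glutamine codon of its pore. Its level was 144, 169 and 148 CPM in the WT libraries and 83.9, 78.4 and 97.3 CPM in the enhancer KO libraries (CPM, reads scaled to a common TMM-adjusted library size). The groups did not overlap, as held for 44.8% of all genes tested, and WT replicate 2 was the high library. The means were 154 ± 13.7 and 86.6 ± 9.72 CPM (SD, n = 3). Grik2 thus fell by 43.6%, with a log2 fold change of -0.83 and an SE of 0.0914 (edgeR adjusted p = 0.000454). With a minimum fold of 1.2, 6.25% of all genes passed, 5.73% lower, and Grik2 was the only member to pass (edgeR glmTreat adjusted p = 0.00286). Grik2 stayed called in all 18 alternative fits, with log2 fold changes from -0.92 to -0.70.

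Granule neuron markers fell in the same libraries as Grik2. All 12 markers of the list were called lower, with a median log2 fold change of -0.62, against 0.0007 over all genes tested. Their summed level ranged from 2653 to 3218 CPM in WT and from 1762 to 2149 in enhancer KO. As a percentage of that sum, Grik2 held 5.43, 5.26 and 4.80 in WT and 4.60, 4.45 and 4.53 in enhancer KO. These percentages did not overlap, with means of 5.16 ± 0.323 and 4.53 ± 0.0754 (SD, n = 3). In bulk RNA, fewer granule neurons and less RNA per granule neuron cannot be told apart. The part of the marker change in that of Grik2 was not tested. As a percentage of the same sum, Neto2 went from 4.40 ± 0.194 to 5.90 ± 0.170 (SD, n = 3), without overlap. Grik5 went from 3.83 ± 0.685 to 5.87 ± 0.716 (SD, n = 3), also without overlap. A gene that falls less than the sum gains as a percentage of it. The log2 fold changes of Neto2 and Grik5 were themselves -0.22 and -0.02. Among the lists for other cells, all 4 endothelial and 2 of 4 oligodendrocyte precursor markers fell, and 2 of 6 for Bergmann glia and astrocytes, 1 of 4 for oligodendrocytes and 1 of 4 for unipolar brush cells rose. Of the Golgi cell markers 1 of 5 fell, of the midbrain markers 1 rose and 1 fell of 7, of the photoreceptor markers 1 rose of 2 tested, and the 4 choroid plexus markers had edgeR adjusted p from 0.648 to 0.945.

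Grik1 encodes GluK1, a subunit with several splice forms. It had 39.0, 43.9 and 42.1 CPM in WT, against 34.6, 36.3 and 39.2 in enhancer KO. The highest enhancer KO library lay above the lowest WT library, so the groups overlapped. Grik1 fell by 11.7%, at a log2 fold change of -0.18 with an SE of 0.0631 (edgeR adjusted p = 0.0475). This call was lost in 13 of 18 alternative fits, among them DESeq2 (adjusted p = 0.103) and library size alone (0.328). Those 13 included 4 fits without a single library. These left out WT replicates 2 and 3 and enhancer KO replicates 1 and 2 in turn (0.187, 0.128, 0.223 and 0.129, adjusted by edgeR). The call held without WT replicate 1 and without enhancer KO replicate 3 (edgeR adjusted p = 0.0172 and 0.0196).

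Grik3 encodes GluK3, a channel-forming subunit of low glutamate sensitivity. Its levels were 97.1, 82.7 and 87.7 CPM in WT, against 113, 107 and 104 in enhancer KO. WT replicate 1 was the highest of its group and was still under the lowest enhancer KO value. Grik3 rose by 20.8%, at a log2 fold change of 0.27 with an SE of 0.0583 (edgeR adjusted p = 0.00436). The call held without any single library. In the fit without WT replicates 2 and 3, where sex pattern goes with genotype, the log2 fold change was 0.17. Grik3 missed a minimum fold of 1.2, which 0.524% of genes passed as higher. Of 6 molecular layer interneuron markers, 2 rose and 1 fell, and their summed level was 658 to 798 CPM in WT, against 821 to 856 in enhancer KO. Most of the sum was Pvalb in every library, at 347, 466 and 467 CPM in WT and 505, 498 and 552 in enhancer KO. Pvalb itself was not called (edgeR adjusted p = 0.136). As a percentage of that sum, Grik3 held 14.7, 10.7 and 11.0 in WT and 13.2, 13.02 and 12.1 in enhancer KO, and the groups overlapped. This percentage thus mainly follows Pvalb and is no measure of the number of interneurons. The part of molecular layer interneurons in the rise of Grik3 was not tested.

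Grik4 encodes GluK4, a high-affinity subunit. Levels were 23.3, 22.0 and 23.9 CPM in WT, against 27.6, 25.4 and 27.2 in enhancer KO. The groups did not overlap, which was so for 44.8% of all genes tested. Grik4 rose by 15.7%, at a log2 fold change of 0.21 with an SE of 0.0628 (edgeR adjusted p = 0.0237). It no longer passed when WT replicate 2, enhancer KO replicate 1 or enhancer KO replicate 3 was left out (0.0712, 0.0734 and 0.0565, adjusted by edgeR). Without WT replicates 2 and 3 its log2 fold change was 0.22. Of 7 Purkinje cell markers, 6 rose and 0 fell, with a median log2 fold change of 0.41, and their summed level went from 4115 to 4919 CPM in WT to 5703 to 6121 CPM in enhancer KO. As a percentage of that sum, Grik4 held 0.507 ± 0.0515 in WT and 0.450 ± 0.0089 in enhancer KO (SD, n = 3). Grik1 held 0.913 ± 0.0496 and 0.618 ± 0.0351 of the same sum. The part of Purkinje transcripts in either gene's change was not tested.

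Grik5 encodes GluK5, the other high-affinity subunit and a common partner of GluK2. It had 121, 103 and 115 CPM in WT, against 115, 110 and 108 in enhancer KO, with the enhancer KO libraries inside the WT range. Its log2 fold change was -0.02, with a 95% interval (from the SE, normal approximation) of -0.13 to 0.09, and it did not pass (edgeR adjusted p = 0.786). The sign turned without WT replicate 1 (0.03), with library size alone (0.04) and with the gene-structure trend removed (0.01).

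The auxiliary subunit genes did not pass either. Neto1 had 27.5, 25.3 and 24.2 CPM in WT, against 25.5, 28.0 and 27.7 in enhancer KO, and the groups overlapped. Its log2 fold change was 0.08, with a 95% interval of -0.06 to 0.21 (edgeR adjusted p = 0.426). Neto2 had 120, 144 and 129 CPM in WT, against 106, 107 and 124 in enhancer KO. Enhancer KO replicate 3 was the high library of its group and lay above WT replicate 1. For Neto2 the log2 fold change of -0.22, with an SE of 0.0806, missed the threshold (edgeR adjusted p = 0.0737). Neto2 was called lower by DESeq2 (adjusted p = 0.0307), without WT replicate 1 and without enhancer KO replicate 3 (edgeR adjusted p = 0.0400 and 0.00893). It was at -0.07 without WT replicates 2 and 3.

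**Figure D2:**
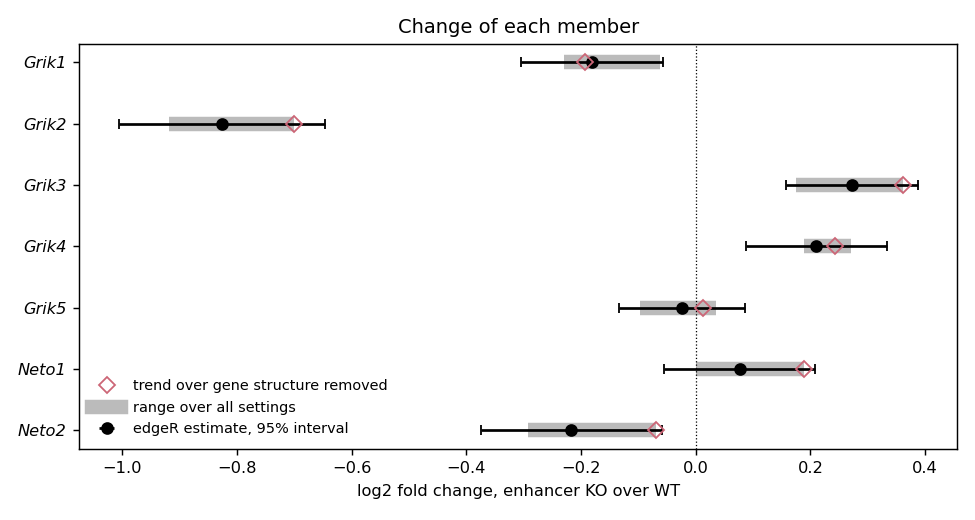
Log2 fold change of each member, enhancer KO over WT (x axis): edgeR estimate with its 95% interval (black), the value with the trend over gene structure removed (open red diamonds) and the range over all settings (grey). Grik2 stayed between -0.92 and -0.70 in every setting, while the ranges of Grik5 crossed 0.

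Reads outside exons differed between the groups, 32.4% ± 1.56 in WT and 17.4% ± 0.735 in enhancer KO (SD, n = 3). A smooth curve per library, fitted on 15694 genes against intron length, transcript length and GC content, put the expected log2 difference at -0.13 for Grik2, -0.15 for Neto2, -0.12 for Neto1 and -0.09 for Grik3. With this gene-structure trend removed, Grik2 was at -0.70 ± 0.0718, Grik3 at 0.36 ± 0.0455 and Grik4 at 0.24 ± 0.0628 (SE; edgeR adjusted p = 8.01e-05, 8.87e-05 and 0.0101). Neto2 was then at -0.07 ± 0.0590 (0.401) and Grik1 at -0.19 ± 0.0714 (0.0548). Neto1 was called higher, at 0.19 ± 0.0675 (0.0460). In that fit 32.9% of genes were called, 2929 higher and 2229 lower. The median log2 fold change of all genes was then 0.04, against 0.0007 in the main fit.

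Levels of different genes were compared per kb of exon (CPM per kb, all annotated exons joined). In WT, Grik5 (21.9 ± 1.76 CPM per kb) and Neto2 (21.4 ± 1.99) stood highest, and their ranges overlapped. Grik2 (11.6 ± 1.03), Grik3 (9.93 ± 0.813), Grik1 (6.20 ± 0.372), Grik4 (3.87 ± 0.167) and Neto1 (3.08 ± 0.202; SD, n = 3) followed, with no overlap between neighbours. Grik2 and Grik3 lay close in WT replicate 1, at 10.87 and 10.82 CPM per kb. In enhancer KO, Grik3 (12.02 ± 0.520) stood above Grik2 (6.53 ± 0.734), the reverse of the WT order, in 3 of 3 libraries. Grik5 (21.5 ± 0.651) then lay above Neto2 (18.4 ± 1.66) without overlap. Per kb of the longest transcript, Grik2 and Grik3 had 16.3 and 9.93 in WT and 9.18 and 12.02 in enhancer KO, so they traded places on that length too. Grik1 was more sensitive to the length used, with 11.4 in WT, above Grik3, and 10.04 in enhancer KO, above Grik2. The ranges overlapped in both of these pairs.

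**Figure D3:**
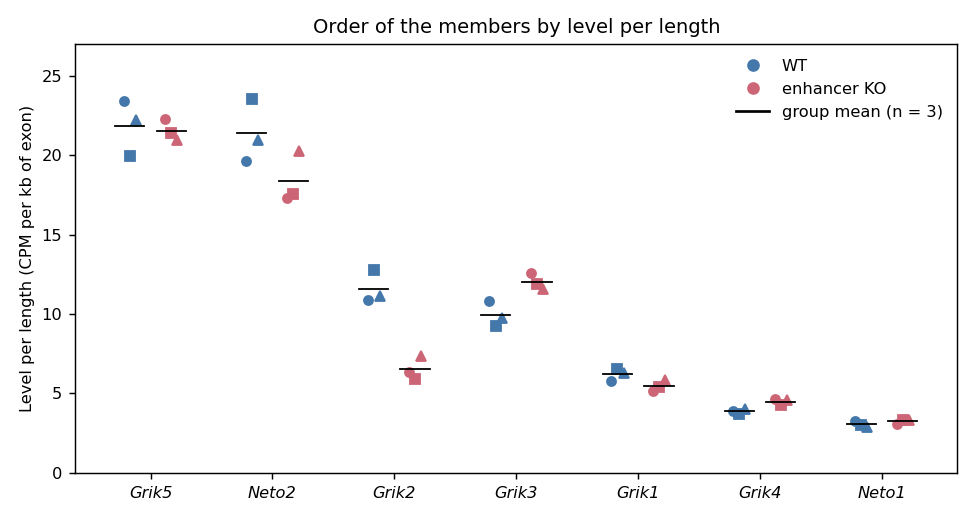
Level per length (CPM per kb of exon, y axis from 0) of the 7 members, ordered by WT mean, with each library as a point and group means as lines. Grik2 stands above Grik3 in the WT libraries, narrowly so in WT replicate 1, and below it in the enhancer KO libraries.

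Subunit shares of the receptor transcripts were lower for Grik2 and higher for Grik3 and Grik4 in each enhancer KO library than in any WT library. Of the summed level per length of the 5 Grik genes, Grik2 held 19.8%, 24.5% and 20.9% in WT and 12.4%, 12.1% and 14.6% in enhancer KO. Grik3 held 19.7%, 17.7% and 18.3% in WT and 24.7%, 24.4% and 23.0% in enhancer KO. Grik4 went from 7.23% ± 0.244 to 8.96% ± 0.202 (SD, n = 3). The groups did not overlap for these 3 subunits, each at exact permutation p = 0.1 (two-sided), the smallest that 3 against 3 libraries allow, and 0.175 adjusted over the 7 ratios tested. Grik5 held 40.9% ± 2.33 and 43.1% ± 1.14, and Grik1 11.6% ± 0.976 and 10.9% ± 0.759 (SD, n = 3; exact permutation p = 0.2 and 0.4). Without WT replicate 2 the Grik5 difference of 2.19 percentage points was 0.887. The Grik1 difference of -0.692 was -1.21 with WT replicate 1 left out, -0.237 with WT replicate 2 left out and -0.282 with enhancer KO replicate 1 left out. Shares of a sum are tied to each other, so a lower Grik2 share goes with higher shares of the rest.

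**Figure D4:**
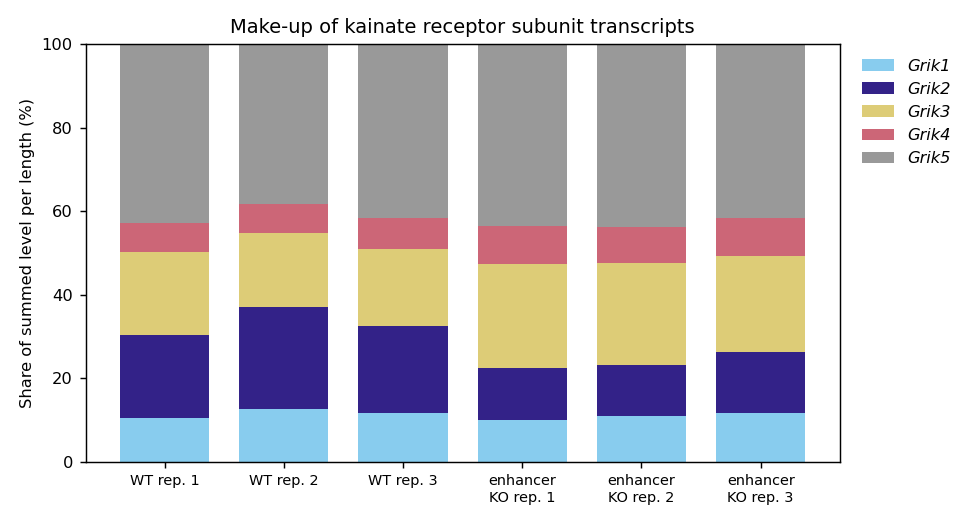
Share of each subunit gene in the summed level per length of Grik1 to Grik5 (y axis, %), 1 bar per library. The Grik2 share is 19.8% to 24.5% in WT and 12.1% to 14.6% in enhancer KO.

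Channel-forming subunits were also set against the high-affinity ones. The log2 ratio of Grik1, Grik2 and Grik3 to Grik4 and Grik5 per length was 0.01, 0.27 and 0.05 in WT and -0.16, -0.14 and -0.05 in enhancer KO. The groups did not overlap, with means of 0.11 ± 0.141 and -0.12 ± 0.0608 (SD, n = 3; exact permutation p = 0.1, 0.175 adjusted over the 7 ratios). The difference of -0.23 was -0.15 without WT replicate 2. Neto1 was the minor auxiliary gene in every library. The log2 ratio of Neto1 to Neto2 was -2.58, -2.96 and -2.85 in WT and -2.50, -2.38 and -2.61 in enhancer KO, and the groups overlapped (exact permutation p = 0.2).

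Genes for known partners of kainate receptors were measured beside the family. Of 24 tested, 2 rose and 5 fell, beside 13.4% higher and 17.9% lower among all genes, and 17 did not pass. Their median log2 fold change was 0.04. Klhl17, whose protein actinfilin targets GluK2 for degradation, went from 41.9 ± 0.601 to 27.4 ± 0.385 CPM (SD, n = 3), a log2 difference of -0.61 ± 0.0503 (SE; edgeR adjusted p = 6.31e-06). On the log2 scale, the presynaptic neurexin gene Nrxn3 fell by 0.33 and Pick1, which encodes a PDZ protein, by 0.29. Senp1, which removes SUMO from proteins, fell by 0.21 and the scaffold gene Dlg1 by 0.16. The scaffold gene Dlg4 rose by 0.16 and Snap25, of the vesicle fusion machinery, by 0.18 on the log2 scale. The deaminase gene Adarb1, known for editing Grik2 mRNA, had 277 ± 12.8 CPM in WT, against 293 ± 4.52 in enhancer KO (SD, n = 3; edgeR adjusted p = 0.201), and was named after its values were seen.

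These partner counts were not stable between fits. The higher partners were 0 without WT replicate 3 and 4 without WT replicate 1, and 1 when WT replicate 2, or the third of the enhancer KO libraries, was left out. The lower partners were 3 without enhancer KO replicate 1, where Dlg1 and Senp1 did not pass. With the gene-structure trend removed, 7 partners were higher and 2 lower of 23, since Klhl17 has no annotation match and was left out of that fit. Dlg1 and Senp1 missed the threshold there (edgeR adjusted p = 0.0813 and 0.0665), and Klhl17 kept its call in all 17 fits it entered.

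Of the 13 other ionotropic glutamate receptor genes, all tested, 3 rose and 3 fell, again beside 13.4% and 17.9% of all genes, with a median log2 fold change of 0.05. Grin2c, an NMDA receptor gene of mature granule neurons, fell by 0.79 on the log2 scale, from 123 ± 11.9 to 71.4 ± 11.3 CPM (SD, n = 3). Gria2, an AMPA receptor gene, fell by 0.49, and by 0.29 with the gene-structure trend removed. Grin1, the obligate NMDA receptor subunit gene, fell by 0.15, a call lost in 10 of 18 alternatives, among them the fit without any 1 library other than WT replicate 3 (edgeR adjusted p from 0.0510 to 0.180). Gria1 rose by 0.36, Grid1 by 0.20 and Gria3 by 0.13 on the log2 scale, and the calls of Grid1 and Gria3 were lost in 6 and 7 of 18 alternatives. The higher genes of this list were 5 without WT replicate 1. They were 1 without WT replicate 3, and also without the first or the second enhancer KO library.

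**Figure D5:**
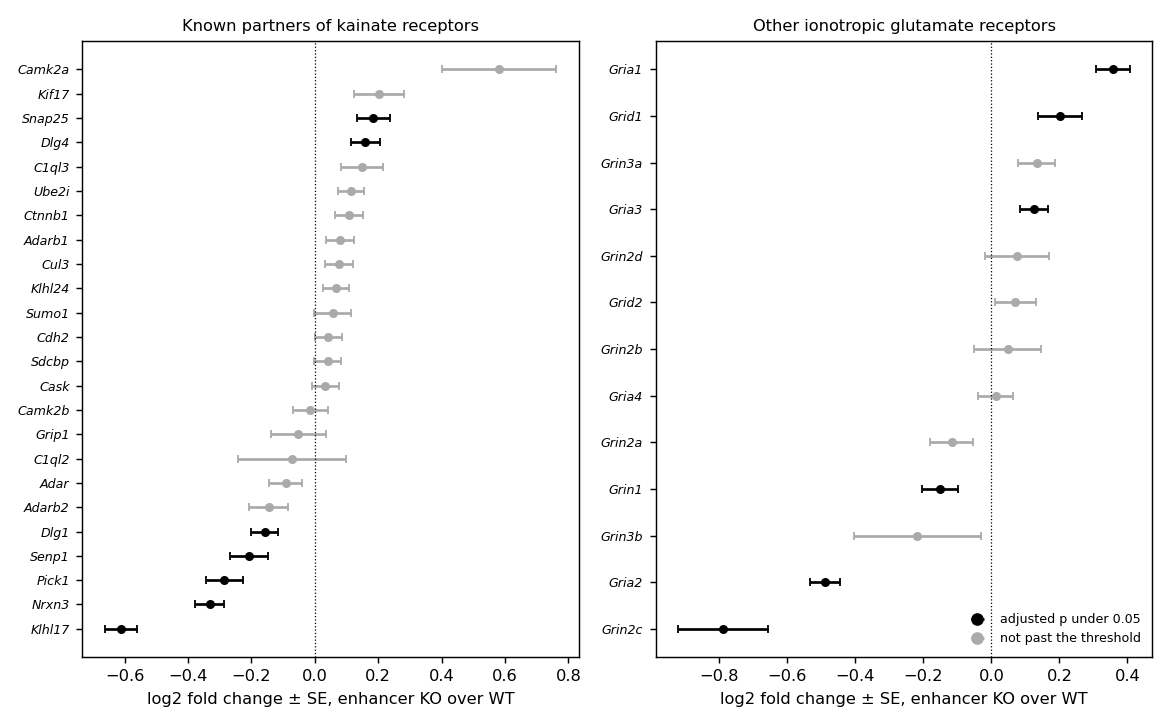
Log2 fold change with its SE, enhancer KO over WT (x axis), for 24 partner genes (left) and 13 other ionotropic glutamate receptor genes (right), with genes past the threshold in black. Klhl17 and Grin2c have the lowest values of their lists, and calls lie on both sides of 0.

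Genes whose pattern over the 6 libraries was nearest to each member were found by the root mean square difference of log2 CPM after centring each gene, among 14241 genes with a mean of at least 1 CPM. Nearest to Grik2 were Pdss1, Phf20l1 and Crhr1, at 0.0539, 0.0597 and 0.0601, against a median of 0.446. Nearest to Grik3 were Hlf, Myrip and Klf12 (0.0170, 0.0251 and 0.0287) and to Grik4 Dtx1, Sec22b and Uqcrc1 (0.0194, 0.0196 and 0.0208). Zranb1, Dach2 and Fbxw7 were nearest to Grik1 and Osbpl5, Pitpnm2 and Sun1 to Grik5, at 0.0153 to 0.0213. For Neto1 they were Cyb5d1, Aspa and Snx7, and for Neto2 Hsf2, Mtch2 and Ngdn, at 0.0160 to 0.0276. Among the members themselves, Grik1 and Neto2 were the closest at 0.0478, and Grik2 and Grik3 the farthest apart at 0.581.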

How the data were processed

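RNA-seq was measured in 3 WT and 3 enhancer KO libraries from mice at postnatal day 18, grouped by the labelled genotype. Reads were trimmed with Trimmomatic and aligned with STAR to mm10, per the submitters' processing notes, with versions and annotation not given in the sources used here. Raw counts of reads per gene, deposited by the authors, come in STAR's own format, unstranded and for each strand. The counts of column 4 were used, since the other strand held 1.62% to 1.88% of stranded gene reads. The 4 rows that name no gene were left out of library sizes. Reads outside exons, which those rows include, are given with the results.

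Genes were filtered with filterByExpr, scaled by TMM and tested with edgeR 4.0.16 (robust quasi-likelihood, no covariate) in R 4.3.3, with Benjamini-Hochberg adjustment over 15846 genes and a threshold of 0.05. The test was checked on 3 simulated sets, where 8.75% of calls were false, above the nominal threshold. SE is the absolute log2 fold change over the square root of F. CPM uses the TMM-scaled library sizes. Lengths, positions and GC content come from GENCODE for mm10, matched for 23334 of 24411 symbols directly and 668 by an older symbol. Ratios within a library were compared by an exact two-sided permutation test. The 18 alternatives included DESeq2 1.42.0, limma 3.58.1 and a gene-structure trend fitted with mgcv 1.9.3.

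Text names every member, Atoh7, up to 6 called genes with the smallest p in each direction of the partner and ionotropic receptor lists, and the 3 genes nearest in pattern to each member. All 24 partners given were tested; 1 other gene of that list is not reported here. Members and lists were chosen with earlier results of these data known. The labels name no animals or litters.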

Additional observations from a re-analysis of the deposited data

Results flagged for a closer look

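Reads on the strand opposite to Grik3 are outside the counts used for the comparison. They numbered 12, 1 and 12 in WT and 14, 20 and 22 in enhancer KO, 25 and 56 in all, and relative to depth every enhancer KO library lay above every WT library. The gap was narrow, with 0.370 CPM in WT replicate 1 and 0.372 CPM in enhancer KO replicate 1. As a share of stranded Grik3 reads the libraries overlapped, with 0.380%, 0.0590% and 0.403% in WT and 0.328%, 0.484% and 0.506% in enhancer KO. Groups of 3 libraries were too small for the test of single outlying libraries.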

How the results depend on the processing

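Grik2 kept its fall in all 18 alternatives, and the calls of Grik1, Grik3 and Grik4 were lost in 13, 2 and 5. Grik5 turned to 0.04 with library size alone, 0.01 with the gene-structure trend removed and 0.03 without WT replicate 1, or 0.0358, 0.0119 and 0.0263; leaving out 1 library at a time gave -0.0746 to 0.0263. Calls beyond a fold of 1.2 left 83 higher genes and 908 lower ones. At that fold 0 members, 0 partners and 0 other ionotropic receptors were higher. Lower were 1 member, 1 partner and 2 other ionotropic receptors. Lower genes were 1689 with library size alone and 1640 without WT replicates 2 and 3. Higher members were 0 without WT replicates 2 and 3. Lower members were 1 with RLE, library size alone, limma-voom, the unstranded column, Rn45s left out of library sizes and the trend removed. In the same order, 2735, 1689, 2852, 3228, 2656 and 2229 genes were lower among all tested, against 2843 in the main fit. The shares of all genes called in either direction were 31.6%, 24.3%, 31.5%, 35.2%, 32.5% and 32.9%. Higher partners were 4 with DESeq2, 5 with the unstranded column, 4 without Rn45s, 7 with the trend removed and 1 without WT replicates 2 and 3. Lower partners numbered 2 under library size alone and 2 of 23 after the trend was removed, a fit without Klhl17, where 5 other ionotropic receptors were higher. Leaving out 1 library at a time gave 1420 to 2214 higher and 2181 to 2710 lower genes, 1 to 2 higher and 1 to 3 lower members, 0 to 4 higher and 3 to 5 lower partners, and 1 to 5 higher ionotropic receptors. Of all calls, 57.3% were lower, against 43.8% with library size alone, which moved the median of all genes to 0.06, and 43.2% with the trend removed. With the replicate number as a block, 1962 genes were higher and 2632 lower, with 2 higher and 2 lower members. Same-numbered libraries had correlations of deviations of 0.0526, -0.0386 and -0.0795, and differently numbered ones -0.103 to 0.118. Deviations from means of 3 libraries cannot tell whether equal numbers mark a pair. The causes were not tested. With 3 libraries a group, ratios cannot go below an exact permutation p of 0.1.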
